A study of Cubamyces sp. BRFM 1775 with 14 samples.

Results

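Pine wood was set against maltose as a growth substrate for Leiotrametes sp. BRFM1775, a fungus of the Trametes group whose organism name in GEO uses the genus Cubamyces. The comparison takes the pine value minus the maltose value of each gene in the deposited table, so its members are all 1052 of the 1052 genes in that table, and 6 of the 14 labelled samples stand behind it. The pine cultures (3 samples) held ground and sifted pine wood at 15 g/l together with 2.5 g/l maltose. The maltose cultures (3 samples) held 20 g/l maltose and no wood. Culture lasted 3 days at 30 °C with shaking at 120 rpm, in 100 ml of a mineral medium that all groups shared, which contained diammonium tartrate, yeast extract and thiamin. Mycelium was frozen together with any solid left over. A difference between pine and maltose therefore combines the added wood with the lower sugar concentration, and the 2 cannot be told apart. The series also holds cultures on ground aspen (3 samples), wheat straw (2 samples) and microcrystalline cellulose (3 samples), each with 15 g/l of substrate. Cellulose and wheat straw cultures had 2.5 g/l maltose, and the amount in aspen cultures is misprinted in the labels.

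Trametes and its relatives are white-rot fungi, which break down cellulose, hemicellulose and lignin in wood with secreted enzymes. Such enzymes include cellulases, hemicellulases, lytic polysaccharide monooxygenases, peroxidases and laccases. Pine is a softwood: its main hemicellulose is a galactoglucomannan, its lignin is built largely of guaiacyl units, and it carries resin that is toxic to many microbes. Maltose is a soluble sugar of 2 glucose units that mycelium can take up or split without attacking a polymer, and in many fungi readily used sugars hold back the genes for polymer breakdown. The table identifies genes by protein numbers of the MycoCosm portal and does not pair them with names, so the genes below are described by number and behaviour and no function is given to any of them.

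Each deposited value is a mean of log2(normalised reads + 1) over the libraries of a substrate. The reads of single libraries were solved from these means. They gave 3 pine libraries for 863 genes and 3 maltose libraries for 960 genes, and 839 genes had both. Libraries are numbered by size factor (the number that reads are divided by to scale a library), lowest first, and these numbers are not the labels' replicate numbers. The size factors were 0.708, 0.891 and 0.906 on pine and 0.426, 1.00 and 1.61 on maltose. The median solved gene had 266, 269 and 271 reads in the pine libraries, against 115.5, 247.5 and 399 in the maltose libraries. Labels do not say whether samples came from separate flasks, so p-values measure the spread between libraries only, which may be technical. That spread was pooled over the 5 substrates, and a substrate whose libraries were not solved for a gene lent none.

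More genes were higher on pine than lower under the deposited scaling. A gene was called when its adjusted p was below 0.05 (limma's moderated test, Benjamini-Hochberg over all genes) and its log2 difference was at least 1, which is a 2-fold change. By this rule 396 genes rose on pine (37.6% of the genes tested) and 143 fell (13.6%), while 513 were not called. Together the calls made up 51.2% of the table. The median difference of the genes that rose was 2.33, and that of the genes that fell was -1.96. Rises reached further than falls. At least 4-fold, 252 genes rose (24%) and 68 fell (6.46%). At least 16-fold, 81 genes rose (7.7%) and 17 fell (1.62%), and at least 64-fold, 20 rose (1.9%) and 2 fell (0.19%). The largest rise, a log2 difference of 9.997, was that of a gene whose libraries could not be solved on both substrates, and the largest fall was -6.35.

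How many genes counted as higher depended on the scaling. Over all genes the median difference was 0.56, so the centre of the table lay towards pine under the deposited size factors. Centring each library on its own median made it -0.44. Quantile normalisation made it -0.18. Moving each library by the median of its differences from the gene means, called the median shift here, made it 0.055. These 3 scalings were computed on the genes of this table, whose choice is not explained in the sources used here. Of all calls, 73.5% were higher on pine as deposited, against 40.7% under median centring, 44.96% under quantile normalisation and 55.4% under the median shift. Genes called in the same direction under all 4 scalings were counted by a rule chosen after seeing the data. They were 223 genes higher on pine (21.2%), with a median difference of 3.41, and 143 genes lower (13.6%), which are all of the genes that fell. Each of the other scalings moved the median difference downwards, so small rises lost their call and falls kept theirs largely by construction, and the count says nothing on the firmness of the falls. All 81 rises of at least 16-fold kept their call under the 4 scalings. Differences of that size far exceed the amounts by which the scalings moved the median, so this too follows largely from the choice. The 173 rises outside the 223 held under the deposited scaling but failed in at least 1 of the others.

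**Figure D1:**
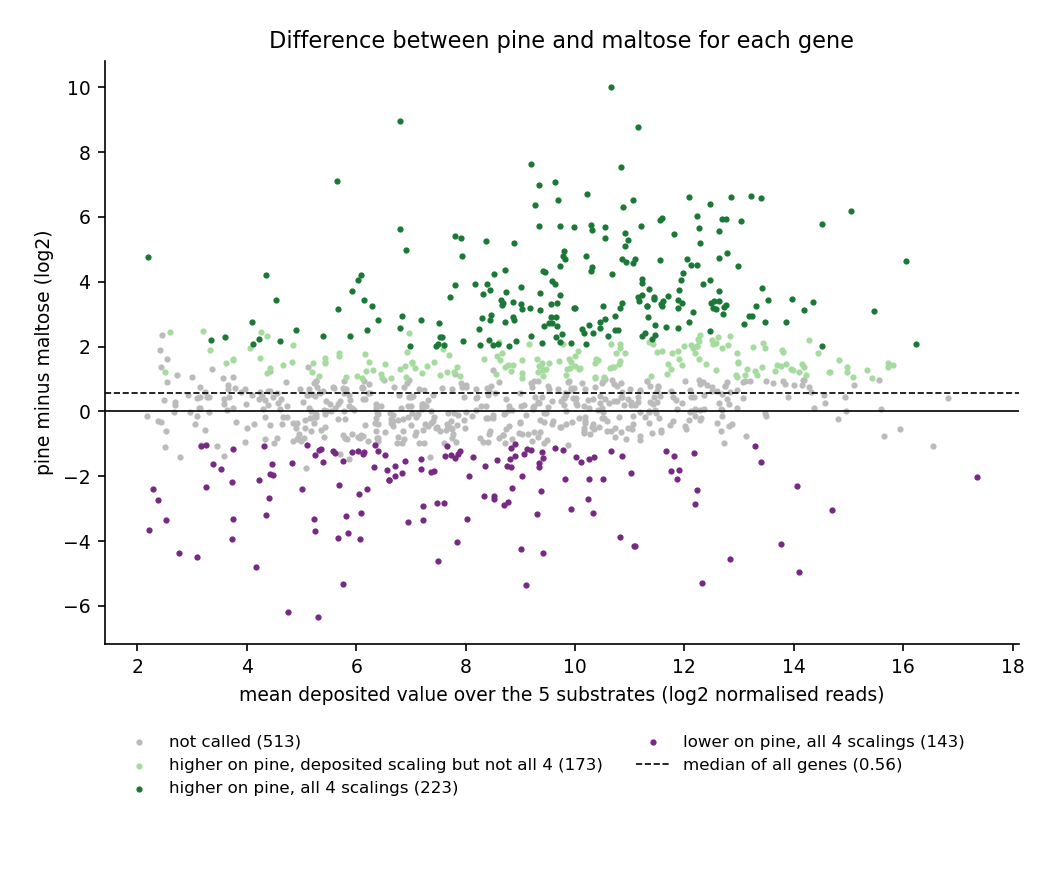
Each point is 1 of the 1052 genes, with its mean deposited value over the 5 substrates on the horizontal axis and its log2 difference, pine minus maltose, on the vertical axis. The 223 rises that held under 4 scalings lie well above the dashed median of 0.56, and the 143 falls lie below 0.

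The 4 genes named here show what such differences look like in single libraries. They were taken by a fixed rule from the called genes whose libraries were all solved and did not overlap: the largest rise, the largest rise among genes with at least 100 reads in every maltose library, the largest fall, and the largest fall among genes with at least 100 reads in every pine library. Gene 1261529 had 1667, 1022 and 1083 reads in pine libraries 1 to 3, against 1, 0 and 11 reads in maltose libraries 1 to 3. It was nearly silent on maltose and well expressed in every pine library. Its mean log2 value was 10.53 on pine (SD 0.58, n = 3) and 1.57 on maltose (SD 1.49, n = 3), a difference of 8.96 (SE 0.59, limma adjusted p = 1.56e-07). Because so few maltose reads support it, the size is uncertain. Summed reads divided by summed size factors gave a ratio of pine to maltose of 381, with a 95% exact (Clopper-Pearson) interval of 218 to 737 that covers counting error only. The log2 difference was 9.66 without maltose library 3 and 8.17 without maltose library 2.

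Gene 1323437 was already expressed on maltose and rose by 4.72 (SE 0.54, limma adjusted p = 3.74e-05). Its normalised reads (reads divided by the size factor) were 4740, 8268 and 10510 in pine libraries 1 to 3, against 643, 185 and 185 in maltose libraries 1 to 3. Pine library 1 was the lowest of the pine libraries and maltose library 1 the highest of the maltose libraries, and the groups did not overlap. The difference was 5.32 without maltose library 1.

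In the other direction, gene 1439293 had 3, 2 and 2 reads in the pine libraries, against 174, 259 and 445 reads in the maltose libraries. Expression was thus close to the detection limit on pine and moderate on maltose. Its mean log2 value was 1.92 on pine (SD 0.40, n = 3) and 8.27 on maltose (SD 0.35, n = 3), a difference of -6.35 (SE 0.37, limma adjusted p = 6.99e-08). By summed reads over summed size factors, the ratio of pine to maltose was 0.00965, with a 95% exact interval of 0.00387 to 0.02. The size of this fall also depends on the constant added before the log: with 32 in place of 1 it was -3.29. Gene 1386849 stayed well measured on both substrates, with normalised reads of 210.3, 205 and 198 in the pine libraries and 3926, 4438 and 4378 in the maltose libraries. Libraries of each substrate agreed closely here, and the difference was -4.37 (SE 0.56, limma adjusted p = 3.21e-05). The SE of this gene is larger than its pine and maltose libraries alone would give, because all substrates share 1 estimate of the spread and its cellulose libraries stood at 13.01 and 10.02.

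These genes took different courses on the other substrates. Gene 1261529 had deposited values of 8.75 on aspen, 9.71 on wheat straw and 3.43 on cellulose, so it was high on every plant material and low on purified cellulose. Gene 1323437 was highest on cellulose, at 14.65, and pine gave the lowest value of the 4 polymeric substrates. Gene 1439293 was at 1.51 on aspen, 6.71 on wheat straw and 8.10 on cellulose, low on both woods only. Gene 1386849 stood at 7.09 on aspen, 8.75 on wheat straw and 11.52 on cellulose. These are levels, and apart from aspen their differences from pine were not tested here.

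**Figure D2:**
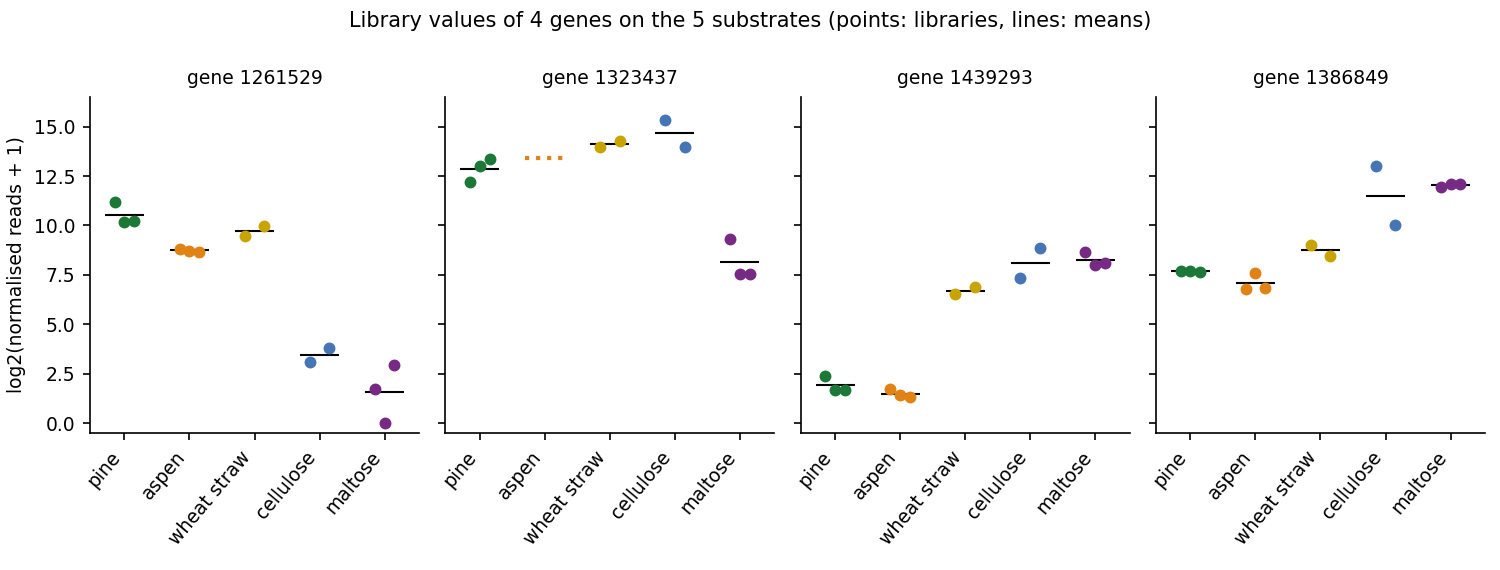
Points are log2(normalised reads + 1) of single libraries of 4 genes on the 5 substrates, horizontal lines are means, and the dotted line is the deposited aspen mean of gene 1323437, whose aspen libraries were not solved. For each gene, the pine libraries lie entirely above or entirely below the maltose libraries.

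Library values of pine and maltose were also compared for overlap. The calls were made from these same values, so the lack of overlap among called genes follows largely from the rule. Among the 839 genes solved on both substrates, all 3 pine libraries lay above all 3 maltose libraries for 364 genes (43.4%) and below them for 226 (26.9%). Of the 259 rises in this group (30.9%), 257 had libraries that did not overlap, and of the 124 falls (14.8%), 122 did. For 213 genes, the libraries of at least 1 of the 2 substrates were not solved. Of these 137 rose and 19 fell, so rises were more frequent among them than among the 839. Values above 13 were not tried, which left out 166 genes on pine and 72 on maltose. The 213 genes were thus picked largely for high values, more often on pine, which favours rises. The spread of these 213 genes came from the substrates that were solved, and the fit used the deposited mean in place of library values. Another 13 genes had a deposited difference of at least 1 towards pine and were not called, with a median SE of 0.72, against 0.25 for the genes that rose. In the other direction 11 genes missed the call, with a median SE of 0.60, against 0.29 for the genes that fell. For the 13, the median SD was 0.66 between pine libraries and 1.15 between maltose libraries. For the 11, it was 0.93 between pine libraries and 0.38 between maltose libraries. All 4 values exceed the medians over all solved genes, which were 0.30 on pine and 0.18 on maltose.

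Libraries were not equally alike. The SD between libraries was above 1 for 51 of 863 genes on pine and for 39 of 960 genes on maltose. By correlation over genes, library 1 was the least like the others on both substrates. Pearson's r over genes, which are not independent replicates, was 0.965 and 0.960 between pine library 1 and the others, and 0.99 between pine libraries 2 and 3. On maltose it was 0.970 and 0.973 between library 1 and the others, and 0.988 between libraries 2 and 3. Maltose library 1 also had the fewest reads of the maltose libraries. It was farthest from the gene's maltose mean for 355 of 960 genes, against 313 and 292 for maltose libraries 2 and 3. Pine library 1 was the library farthest from the gene's pine mean for 504 of 863 genes. Set against the average of the other pine libraries, its median excess was 0.25 for genes that rose, 0.24 for genes that fell and 0.16 for genes not called, so it was shifted upwards in every class. On the genes with solved pine libraries, 264 rose and 136 fell, and without pine library 1 these counts were 251 and 148. Maltose library 1 was the highest of the maltose libraries in 48 of the 74 rises of at least 16-fold solved on maltose, with a median excess of 0.27 over the average of the other two. For genes not called it was highest in 165 of 475. Without it 357 genes rose and 116 fell, against 359 and 126 with it on the same genes.

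**Figure D3:**
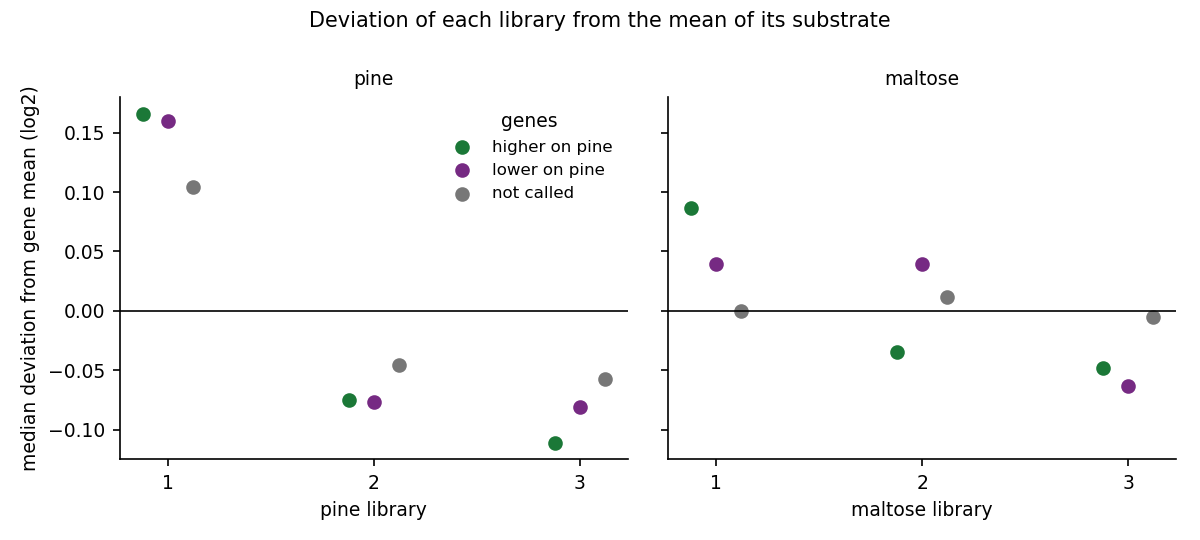
Points give the median, over genes of a call class, of a library's log2 deviation from the mean of its substrate, with pine libraries on the left and maltose libraries on the right. Pine library 1 lies above the other pine libraries in all 3 classes, while maltose library 1 is raised most in genes that were higher on pine.

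The direction of the response went with how strongly a gene was expressed. Genes were divided into 4 classes of 263 by their mean deposited value over the 5 substrates. In the lowest class 51 genes rose and 52 fell, and the median difference was 0.16. In the second class 84 rose and 45 fell. In the third, 116 rose and 29 fell, with a median difference of 0.75. In the highest class 145 rose, which is 55.1% of its genes, and 17 fell, with a median difference of 1.24. The share of calls that were higher on pine was thus 49.5% in the lowest class and 89.5% in the highest. This share was larger in the highest class than in the lowest under every scaling: 67.9% against 15.5% under median centring, 57.0% against 36.04% under quantile normalisation, and 80.3% against 29.7% under the median shift. Class means include the pine values themselves. With classes formed from the mean of cellulose, wheat straw and aspen instead, the shares were 90.2% in the highest class and 50% in the lowest. That split is not free of the response either, since the genes that rose on pine were also higher on aspen and wheat straw than on maltose in their median levels. In the highest class only 81 genes had both sets of libraries solved, so many of its calls rest on the spread in other substrates.

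**Figure D4:**
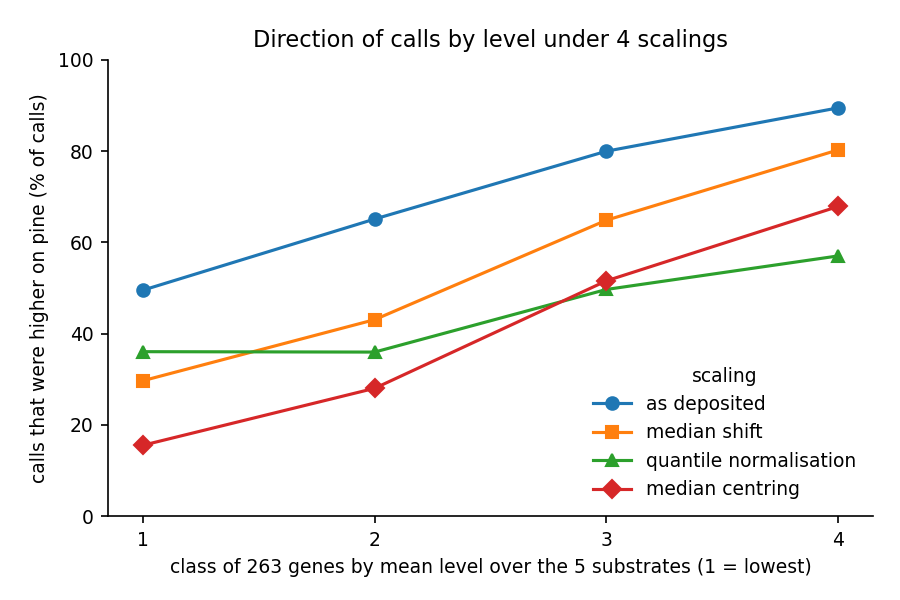
The share of calls that were higher on pine, in percent of all calls of a class, is plotted for 4 classes of 263 genes ordered by mean level, with 1 line per scaling. Every line ends higher than it starts, and the deposited scaling gives the highest share in each class.

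Genes close to silence on 1 of the substrates were looked at separately. On maltose, 65 genes had a deposited value of at most 10 normalised reads. Of these, 24 rose on pine and 1 fell. Among the other 987 genes 372 rose, a like share. Pine values of the 24 had a median of 5.15, or 34.4 normalised reads, and gene 1261529 was the highest of them at 10.53. Under all 4 scalings 14 of the 24 were called higher. On pine, 57 genes had at most 10 normalised reads, and 22 of them were called lower than on maltose, where their median value was 5.24 and their highest one of 8.27, that of gene 1439293. Of the 57, 1 rose, and among the other 995 genes 121 fell. Both sets were picked for a low value on 1 side, which favours a call in the matching direction. With so few reads on 1 side, the size of these changes depends on the added constant.

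Genes that rose on pine included many of its most abundant transcripts. Taken back from the log2 scale, the genes that rose made up 71.1% of the summed deposited values on pine, against 27.8% on maltose. The genes that fell made up 2.78% on pine, against 27.8% on maltose. Both groups were chosen by the difference of these same columns, so the direction of these changes follows from the choice. Since deposited values are means of logs, these percentages do not describe how reads were divided within a library. Over all genes 37.6% rose, and 55.1% in the highest level class, and picking genes by their pine value favours rises. Of the 10 most abundant genes on pine 9 had risen, by up to 6.57, and the remaining one differed by 0.40. Only 4 of the 9 were called under all 4 scalings. Over all genes 13.6% fell, and picking genes by their maltose value favours falls. Among the 10 most abundant on maltose, 4 fell on pine, the lowest difference being -4.95, 1 rose and 5 were not called. None of these genes had its libraries solved on the substrate it was picked on, because values of 15.70 and above lie beyond the range that was searched. Spread between pine libraries thus did not enter the calls of the 10 on pine, nor spread between maltose libraries those of the 10 on maltose.

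Levels on the other cultures show where the pine response stood among the substrates. The genes that rose had a median deposited value of 11.16 on pine, 10.90 on aspen, 10.88 on wheat straw, 9.71 on cellulose and 8.26 on maltose. The 143 genes that fell had medians of 6.67 on pine, 6.96 on aspen, 7.28 on wheat straw, 8.47 on cellulose and 8.80 on maltose. Both sets were chosen on the pine and maltose values, so only the other 3 columns are free of that choice. In each set wheat straw and aspen lay near pine, and cellulose lay between pine and maltose. Genes not called had medians between 8.15 and 8.30 on all 5 substrates. Pine was the substrate of highest value for 229 of the 396 rises, aspen for 81, cellulose for 54 and wheat straw for 32. Over all 1052 genes pine was highest for 353 and lowest for 174, and the choice of rises and falls by their pine values favours such counts. Of the 143 falls, 82 had their lowest value on pine, 47 on aspen, 8 on wheat straw and 6 on cellulose. The strongest responses were shared in level with the other plant materials: the 81 rises of at least 16-fold had medians of 12.20 on pine, 12.37 on aspen, 12.05 on wheat straw, 9.89 on cellulose and 6.71 on maltose. The 17 falls of at least 16-fold stood at 6.70 on pine, 6.63 on aspen, 7.86 on wheat straw, 11.52 on cellulose and 10.97 on maltose, so that cellulose was not below maltose in this group.

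**Figure D5:**
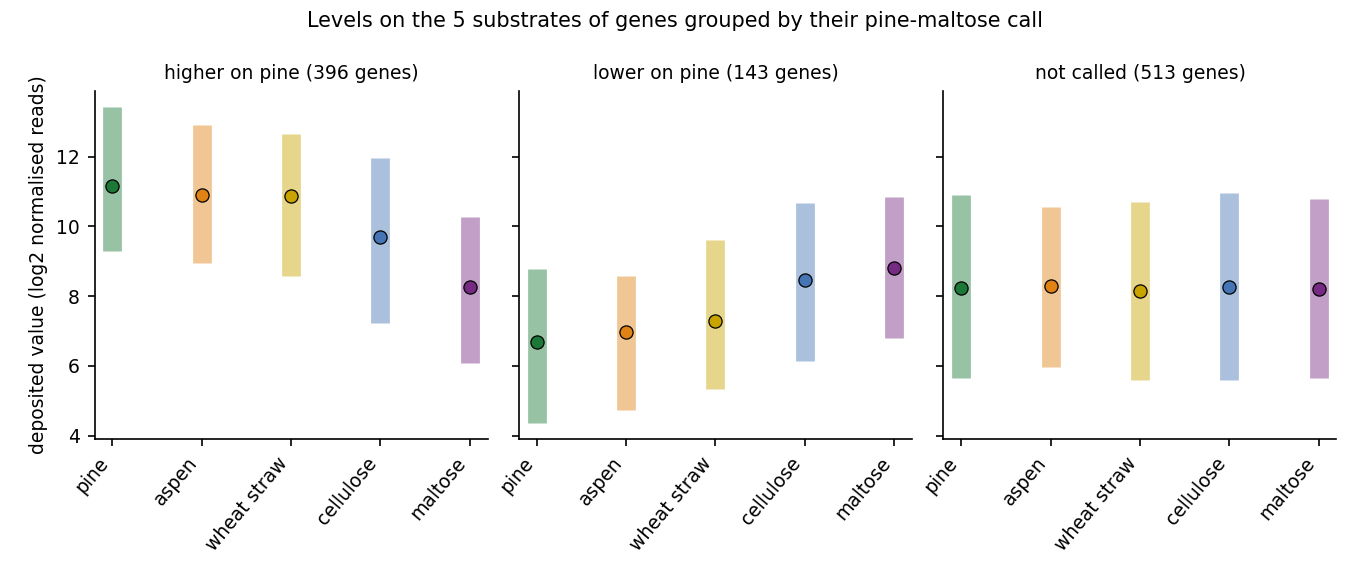
Dots are medians and bars the range between the quartiles of deposited log2 values on the 5 substrates, for the 396 genes higher on pine, the 143 lower on pine and the 513 not called. In both called groups aspen and wheat straw lie close to pine, cellulose lies nearer to maltose than they do, and the genes not called are level.

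Aspen, the other wood, was the culture closest to pine in kind, and the contrast of the woods tests whether a gene responded differently on them. Over all genes tested 178 were higher on pine than on aspen (16.9%) and 75 lower (7.13%). Of the 396 genes that rose against maltose, 118 were also higher on pine than on aspen, 27 were lower, and 251 were not called between the woods. The 118 exceeded aspen by a median of 1.45, and the 27 lay below it by a median difference of -1.75. Among the 143 genes that fell, 16 were also lower on pine than on aspen, 10 were higher and 117 were not called. Both contrasts use the same pine libraries, so genes picked for a high pine value lean towards pine over aspen and genes picked for a low one lean the other way, and nothing is read from these counts beyond their values. A gene not called between the woods is not shown to be equal on both. Gene 1261529 was higher on pine than on aspen by 1.78 (SE 0.59, limma adjusted p = 0.0297). The other 3 named genes were not called between the woods: pine minus aspen was -0.53 (SE 0.54) for gene 1323437, 0.42 (SE 0.37) for gene 1439293 and 0.59 (SE 0.56) for gene 1386849. The rises that were also higher on pine than on aspen numbered 59 under median centring, 40 under quantile normalisation and 72 under the median shift. For falls that were also lower than on aspen these counts were 56, 26 and 49. With 8 or 32 in place of 1 as the added constant, such falls numbered 9 and 7. Falls that were also lower than on aspen numbered 27 without pine library 1, against 16 with it on the same genes.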

How the data were processed

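Messenger RNA of mycelium was measured by sequencing of paired reads of 150 bp. The deposited table holds a normalised log2 read count, 1 per substrate, per the file headers. TopHat2, HTSeq and DESeq (version 1.5) are named, with no role or order, per the submitters' processing notes. Neither the genome build nor the reason for choosing these genes is given in the sources used here.

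A column was taken as an average, across its libraries, of log2(reads × scale + 1). The 16 lowest values of a column served to find these scales and 60 to check them: all 60 pine and all 60 maltose values came out whole within 1e-09 log2, and 0 did with scales moved 1% up or down. Pine, maltose and aspen gave 3 libraries, wheat straw and cellulose 2, although the labels list 3 cellulose samples. Reads were kept where exactly 1 whole-number solution existed: every combination up to a value of 6, libraries within 2 log2 units of the mean up to 11, and within 1 up to 13, the highest tried with 3 libraries. The recovery and the test were checked on simulated data. Every pair of pine or maltose libraries differed beyond counting noise (lowest chi-square divided by its degrees of freedom 11.9), and each library was counted as 1 sample. Among maltose libraries this value was 11.9 and 13.2 for library 1 with the others, and 15.3 between libraries 2 and 3.

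Differences were tested with limma 3.58.1 in R 4.3.3 on all 13 libraries, with a mean per substrate and a trend of the spread over levels. Unsolved substrates kept their deposited mean and lent no spread. Named genes followed the rule stated with them. The ratios and their Clopper-Pearson intervals used summed reads over summed size factors. Members, lists and tests were chosen with earlier results of these data known. Python 3.11.15, NumPy 2.4.6, numba 0.67.0, SciPy 1.17.1 and matplotlib 3.10.9 were used.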

Additional observations from a re-analysis of the deposited data

Results flagged for a closer look

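Limma's contrast of the 2 woods called some of the genes that were called between pine and maltose. Among these 539 genes 128 were higher on pine than on aspen and 43 were lower. Of all 1052 genes 178 (16.9%) were higher and 75 (7.13%) lower, and the 43 are close to that share. Which direction had more calls depended on the scaling, with 78 higher and 85 lower under median centring, 59 and 69 under quantile normalisation, and 84 and 86 under the median shift. Gene 1261529 was one of them, with a difference of 1.78 between pine and aspen. The same pine libraries enter this contrast and the one with maltose that chose the genes, so nothing is read from these counts beyond their values. The amount of maltose in the aspen cultures is not known, so wood and sugar cannot be told apart here either.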

How the results depend on the processing

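No paired analysis was possible because the columns carry no replicate numbers, so no replicate block was fitted. All 4 named genes kept their direction and their call under each of 17 alternatives. They were picked for large differences, so many of these alternatives could hardly undo their calls. Changing the minimum fold could not. Counts of calls moved with the scaling and with the minimum fold. Counts of falls that were also called between the woods moved with the added constant too. Falls lower than on aspen numbered 16 as reported, 9 with 8 added and 7 with 32 added. Falls higher than on aspen numbered 10, 8 and 6 in the same order. Rises numbered 244 with median centring and 250 after quantile normalisation, and falls 356 and 306. With the median shift falls numbered 244. The shares of higher calls were 40.7%, 44.96% and 55.4%, and the median differences -0.44, -0.18 and 0.055, for median centring, quantile normalisation and the median shift. Genes called the same way in all 4 scalings, a group added after seeing the data, were 223 rises. With no minimum fold there were 221 falls, and with a log2 difference of at least 2 there were 252 rises and 68 falls. On the 839 genes with reads recovered on pine and maltose 258 rose, against 259 of the same genes (30.9%) in the main fit. Over all genes the share was 37.6%, because the 213 genes left out held 137 rises. Of all genes called between pine and maltose, those higher on pine than on aspen numbered 78, 59 and 84 under the 3 scalings, 244 with no minimum fold, 18 at a log2 difference of at least 2, and 67 on genes with recovered reads. Those lower on pine than on aspen numbered 85, 69, 86, 119 and 9 under the same alternatives other than the last. Leaving out 1 pine library gave 251 to 275 rises and 127 to 148 falls on genes solved on pine, and leaving out 1 maltose library gave 349 to 361 and 116 to 126 on genes solved on maltose. Depth limits the weakest genes: fold changes of genes with a few reads on 1 substrate depend on the added constant.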
